A study of Mus musculus with 29 samples.

Results

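Nkx2-1, Nkx2-4, Sim1, Otp, Pomc, Fezf1, Fezf2, Foxb1, Barhl2 and Tcf7l2 are regulators and markers of the developing hypothalamus and thalamus, and they were followed by gene symbol through the RNA-seq count tables of the study. All 10 were listed, among 25239 genes, and all 10 passed the filter on low counts that left 15383 genes to be tested. The tables hold mouse brain regions dissected at stage E11.5, in 4 groups of 2 libraries each: wild-type forebrain, forebrain with the hs267-853 knockout, wild-type midbrain, and midbrain with the hs654 knockout. The knockouts remove enhancers, non-coding elements that raise transcription of a gene at a distance, and the comparison was made to see which genes change without them. Each library came from tissue of several embryos of one genotype combined, so a library is an average over embryos and over all cell types of the dissected region. Zygosity and strain of the knockout embryos are not given in the sources used here, and the 21 chromatin-contact samples deposited alongside were not analysed here.

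The hypothalamus and the thalamus arise from the diencephalon and the adjoining secondary prosencephalon, between the telencephalon in front and the midbrain behind. Nkx2-1 is a homeodomain factor required for the ventral hypothalamus and, in the telencephalon, for the medial ganglionic eminence, and Nkx2-4 is its close paralog. Sim1 and Otp act together in making the neurosecretory neurons of the hypothalamus, Pomc encodes the precursor of melanocortins and beta-endorphin, and Foxb1 marks the mammillary region. Fezf1 and Fezf2 are zinc finger repressors of the rostral forebrain, while Barhl2 and Tcf7l2 work caudally: Barhl2 takes part in forming the zona limitans, the organizer at the front of the thalamus, and Tcf7l2, a DNA-binding partner of beta-catenin in Wnt signalling, marks thalamus, habenula and pretectum.

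The libraries held 9051632 to 18024406 counts in genes, and levels are given in CPM after TMM scaling. The upper limit that a count of 0 allows is 3 counts, or 0.170 to 0.327 CPM by library. This limit covers counting error only. Marker genes placed the libraries with the labelled tissue: 10 of 10 telencephalic genes were higher in wild-type forebrain and 9 of 10 midbrain genes in wild-type midbrain, by the rule used throughout. A gene is called where the quasi-likelihood F test of edgeR, fitted over the 8 libraries and corrected by Benjamini-Hochberg over every tested gene, gives an adjusted p below 0.05. En2, a gene of the midbrain and anterior hindbrain, and Foxa2, a floor plate gene, had no count in any forebrain library, whereas En1 (2.84 to 6.44 CPM) and Pax7 (3.12 to 4.65 CPM) of the same list did. En2 and Foxa2 thus passed the filter on low counts through midbrain alone and could be tested only as genes high in midbrain. Of 8 hindbrain genes 2 had enough counts to be tested and neither was called, and the 6 others stayed at or below 0.479 CPM. The second principal component, with 6.33% of the variance, set replicate 1 of the knockout forebrain apart from the 7 other libraries (score -33.7 against -1.66 to 18.3). In bulk tissue a lower level can come from fewer cells of a type or from less RNA per cell, and these cannot be told apart.

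The 10 genes did not share one pattern between the tissues. In wild-type libraries Nkx2-1, Fezf1 and Fezf2 were higher in forebrain, and Nkx2-4, Sim1, Otp, Foxb1, Barhl2 and Tcf7l2 were higher in midbrain. Thus 3 of 10 members were called higher in forebrain, against 14.3% of all tested genes, and 6 of 10 higher in midbrain, against 15.3%. Nkx2-4, counted as higher in midbrain here and in the knockout libraries, passed the filter on low counts through its midbrain counts alone. Pomc was the member that was not called. The median absolute log2 difference was 3.24 over the members and 0.23 over all tested genes. In the knockout libraries, a separate set, 3 members were higher in forebrain (14.6% of all genes) and 5 higher in midbrain (14.8%), and Otp was not called. In that second contrast the genotypes differ together with the tissue.

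**Figure D1:**
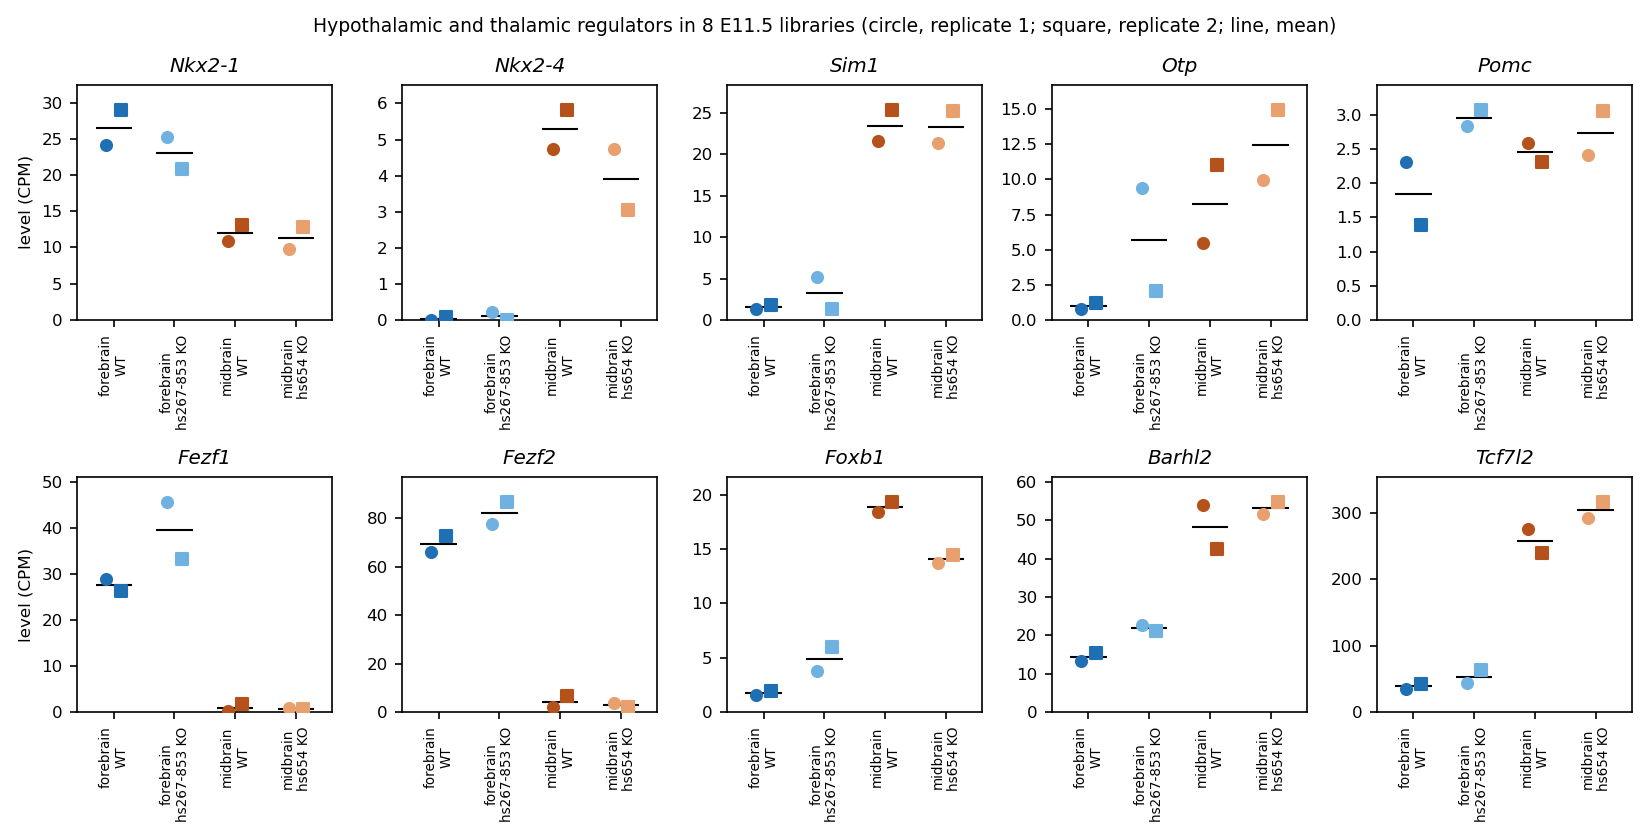
Level of each of the 10 genes in CPM (linear axes from 0, one scale per gene) in the 4 groups; circles are replicate 1, squares replicate 2 and lines group means. Fezf1 and Fezf2 lie near the axis in midbrain, Nkx2-4 lies near the axis in forebrain, and Otp is spread from 2.03 to 9.41 CPM within knockout forebrain.

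Nkx2-1 was present in both tissues and higher in forebrain. It measured 24.1 and 29.0 CPM in wild-type forebrain, 25.2 and 20.8 CPM in knockout forebrain, 10.9 and 13.1 CPM in wild-type midbrain and 9.80 and 12.9 CPM in knockout midbrain (replicates 1 and 2). Every forebrain library was thus above every midbrain library, and within each tissue the genotypes overlapped. The log2 difference between wild-type forebrain and midbrain was 1.15 (SE 0.166), with an adjusted p of 0.000209, and in the knockout libraries it was 1.03 (SE 0.173), with an adjusted p of 0.000586. The forebrain tissue also contained Lhx6 and Lhx8, genes of the medial ganglionic eminence that act with Nkx2-1, at 8.75 and 8.90 CPM and at 4.55 and 6.34 CPM in the wild type. How much of the Nkx2-1 signal came from telencephalon and how much from hypothalamus was not tested.

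Nkx2-4 behaved in the opposite way. It had 0 and 1 counts in wild-type forebrain, 4 and 0 counts in knockout forebrain, 75 and 73 counts in wild-type midbrain and 55 and 28 counts in knockout midbrain. The midbrain counts equal 4.74, 5.83, 4.73 and 3.06 CPM, whereas no forebrain library exceeded 0.227 CPM. Over summed counts, wild-type midbrain was 144-fold higher than wild-type forebrain (95% exact interval 25.5 to 5744, from 148 against 1 counts), and the knockout libraries gave 32.8-fold (12.4 to 123, from 83 against 4 counts, all 4 in replicate 1). The adjusted p was 2.9e-05 and 0.000107. Because the gene passed the filter on low counts through its midbrain counts alone, it could be tested only as a gene high in midbrain. Thus the forebrain libraries, all of which had Nkx2-1, held 5 Nkx2-4 counts in all, and the midbrain libraries held both genes. Rax and Six6, which define early ventral hypothalamus and optic tissue, were at most 1.20 and 0.262 CPM in any library of either tissue, too low to be tested.

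The start-site regions of this pair are shown because the genes are close paralogs with opposite tissue bias. The Nkx2-1 region lies at chr12:56536909-56537158 and the Nkx2-4 region at chr2:147085440-147085595, both on the minus strand of GRCm38.p6 (RefSeq), and the second was shortened to the 156 bases outside the annotated gene. Capitals mark matches to GGGCGG, the GC box, on either strand.
Nkx2-1: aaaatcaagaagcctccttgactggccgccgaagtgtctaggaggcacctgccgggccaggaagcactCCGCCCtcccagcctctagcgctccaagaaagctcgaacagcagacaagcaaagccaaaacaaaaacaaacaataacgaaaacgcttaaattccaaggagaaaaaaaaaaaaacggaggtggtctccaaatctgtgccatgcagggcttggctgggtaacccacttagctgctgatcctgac
Nkx2-4: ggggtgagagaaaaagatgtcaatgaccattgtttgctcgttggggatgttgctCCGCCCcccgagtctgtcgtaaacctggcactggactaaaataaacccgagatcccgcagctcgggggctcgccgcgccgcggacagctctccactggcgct
Over its full 250-base window, Nkx2-1 had 50.8% G and C with 9 CpG dinucleotides, near the median of 32851 RefSeq promoters (52.4% and 6). The 250-base Nkx2-4 window had 70.4% with 33 CpG, but it runs into the annotated gene, beyond the 156 bases shown. The composition of the part outside the gene was not computed alone, so the 2 values do not compare like regions. The Nkx2-1 gene itself spans 56531935 to 56536908 on chromosome 12 and Nkx2-4 spans 147083337 to 147085439 on chromosome 2, and neither overlaps another RefSeq gene, although the Nkx2-4 upstream region overlaps the long non-coding RNA gene Gm34889.

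Sim1, a bHLH-PAS factor, and Otp, a homeodomain factor, were both higher in midbrain tissue. Sim1 measured 1.29 and 1.86 CPM in wild-type forebrain, 5.16 and 1.37 CPM in knockout forebrain, 21.6 and 25.4 CPM in wild-type midbrain and 21.3 and 25.2 CPM in knockout midbrain. On the log2 scale wild-type forebrain minus midbrain gave -3.90 (SE 0.395, adjusted p 8.65e-06), and in knockout libraries it was -2.79 (SE 0.345, adjusted p 5.43e-05), or -4.07 without replicate 1 of the knockout forebrain (adjusted p 1.08e-08). The 4 midbrain libraries lay within 1.19-fold of each other, whereas the forebrain libraries spanned 4.00-fold, with replicate 1 of the knockout at the top.

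Otp varied most from library to library within forebrain among the members with a count in every library. It measured 0.746 and 1.24 CPM in wild-type forebrain, 9.41 and 2.03 CPM in knockout forebrain, 5.50 and 11.02 CPM in wild-type midbrain and 9.97 and 15.0 CPM in knockout midbrain. Replicate 1 of the knockout forebrain, with 166 counts, reached the midbrain range and stood 12.6-fold above the lowest forebrain library. The log2 difference between wild-type forebrain and midbrain was -3.05 (SE 0.654, adjusted p 0.00356). In the knockout libraries it was -1.09 (SE 0.492), with an adjusted p of 0.119, and without replicate 1 of the knockout forebrain it was -2.60 with an adjusted p of 0.000216. Without a filter on low counts the knockout contrast was also called (adjusted p 9.85e-06). Otp spans 94875636 to 94885125 on chromosome 13. Its upstream region is shown because this member varied most between the forebrain libraries. It lies at chr13:94875386-94875635 on the plus strand of GRCm38.p6, with capitals for 3 overlapping matches to GGGCGG.
Otp: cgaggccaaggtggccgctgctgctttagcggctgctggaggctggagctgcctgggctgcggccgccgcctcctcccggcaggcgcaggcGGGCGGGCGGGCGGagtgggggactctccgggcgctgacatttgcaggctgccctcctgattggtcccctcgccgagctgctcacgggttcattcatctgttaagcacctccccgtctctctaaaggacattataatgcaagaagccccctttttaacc
GGGCGG, searched on both strands, occurs in 32.7% of all promoter windows of this length. The other 5 motifs searched on both strands were the TATA box TATAAA (in 12.4% of all windows), the homeodomain core TAATTA (4.84%), the TCF and LEF core CTTTGA (13.8%), the NKX2 core CAAGTG (11.6%) and the E-box CACGTG (6.02%), and none of these is in the Otp window. A RefSeq promoter window was matched for 9 of the 10 genes, all except Foxb1.

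Pomc was low in both tissues. It measured 2.31 and 1.39 CPM in wild-type forebrain, 2.84 and 3.08 CPM in knockout forebrain, 2.59 and 2.31 CPM in wild-type midbrain and 2.41 and 3.06 CPM in knockout midbrain, from 18 to 50 counts per library. All wild-type and knockout midbrain values fell between 2.31 and 3.06 CPM, and forebrain surrounded them. Between wild-type forebrain and midbrain the log2 difference was -0.40 (SE 0.353, adjusted p 0.435) and that between the knockout tissues 0.12 (SE 0.340, adjusted p 0.828), so a difference was not detectable at this depth. Pomc is also a gene of the pituitary, and genes of the pituitary primordium were near zero: Tbx19, the factor that drives pituitary Pomc, had no count in any library, and Pou1f1, Cga, Hesx1 and Lhx3 stayed at or below 0.546 CPM.

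Among the 9 matched genes, Pomc is the one whose 250-base window holds TATAAA on its own strand close to the start, beginning 25 bases before it. The region lies at chr12:3954695-3954944 on the plus strand of GRCm38.p6, directly before the gene, which ends at 3960643. Capitals mark, from left to right, TAATTA, then the GC box on the minus strand, then TATAAA.
Pomc: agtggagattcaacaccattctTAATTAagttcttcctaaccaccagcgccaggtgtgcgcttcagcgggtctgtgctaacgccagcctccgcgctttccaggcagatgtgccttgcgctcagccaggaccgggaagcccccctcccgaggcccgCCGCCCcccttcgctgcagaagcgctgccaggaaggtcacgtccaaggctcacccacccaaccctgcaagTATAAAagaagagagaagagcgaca
Sim1 and the second start site of Tcf7l2 hold TATAAA on the opposite strand, and the other matched windows hold none.

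Fezf1 and Fezf2 were the members with the steepest forebrain bias. Fezf1 measured 29.0 and 26.2 CPM in wild-type forebrain, 45.6 and 33.3 CPM in knockout forebrain, 0.253 and 1.68 CPM in wild-type midbrain and 0.860 and 0.655 CPM in knockout midbrain. Fezf2 measured 66.0 and 72.7 CPM in wild-type forebrain, 77.5 and 86.7 CPM in knockout forebrain, 1.96 and 6.78 CPM in wild-type midbrain and 3.87 and 2.07 CPM in knockout midbrain. No midbrain value came near a forebrain value for either gene. The log2 difference between wild-type forebrain and midbrain was 4.94 (SE 0.359, adjusted p 3.76e-07) for Fezf1 and 4.06 (SE 0.290, adjusted p 3.34e-07) for Fezf2. In knockout libraries it was 5.67 (SE 0.382) and 4.74 (SE 0.319), with adjusted p of 1.91e-07 and 1.86e-07.

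The small midbrain signal of both Fezf genes varied with the library. Fezf1 varied 6.63-fold and Fezf2 3.46-fold over the 4 midbrain libraries, with wild-type replicate 2 highest and wild-type replicate 1 lowest for Fezf1 and for Fezf2. Genes of the telencephalon moved alongside: Emx1 measured 0.885 and 4.47 CPM in wild-type midbrain and 2.49 and 1.64 CPM in knockout midbrain, and of 10 telencephalic genes 6 were highest in wild-type replicate 2. That library was also the highest of the 4 for 6 of 10 members (Nkx2-1, Nkx2-4, Sim1, Fezf1, Fezf2 and Foxb1), against 23.9% of all tested genes. The remaining 4 members were highest in knockout replicate 2, against 26.2%. Summed over the telencephalic list, wild-type midbrain held 23.8 and 46.1 CPM and knockout midbrain 32.1 and 24.5 CPM, against 843 to 983 CPM in forebrain libraries. Relative to the wild-type forebrain mean, wild-type replicate 2 of midbrain held 9.78% for Fezf2, 6.08% for Fezf1, 8.05% for Emx1, 2.56% for Tbr1 and 1.71% for Eomes, the last 3 shown after their values were seen. The part of telencephalic tissue in the Fezf values was not tested.

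**Figure D2:**
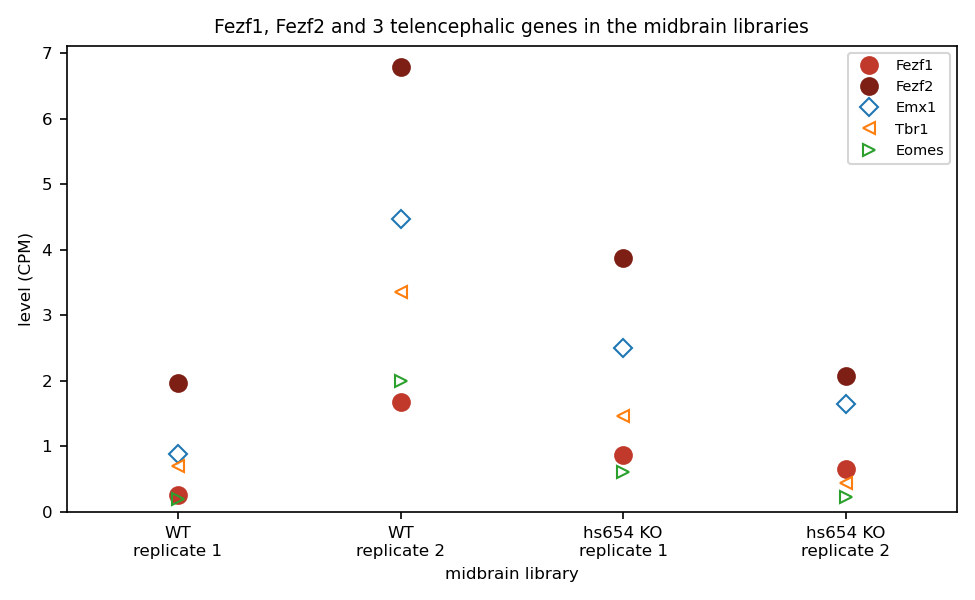
Level in CPM (linear axis from 0) of Fezf1, Fezf2 and 3 telencephalic genes in each midbrain library, one symbol per gene. All 5 genes are highest in wild-type replicate 2, where Fezf2 reaches 6.78 CPM and Emx1 4.47 CPM. The 3 telencephalic genes were chosen after their values were seen. Of the full list of 10 telencephalic genes, 6 were highest in that library and the rest were not.

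Foxb1, a forkhead factor of the mammillary region that midbrain and spinal cord also express, was low in wild-type forebrain and separated all 4 groups. It measured 1.56 and 1.93 CPM in wild-type forebrain, 3.80 and 6.02 CPM in knockout forebrain, 18.4 and 19.3 CPM in wild-type midbrain and 13.7 and 14.4 CPM in knockout midbrain. No 2 groups overlapped, with wild-type forebrain lowest and wild-type midbrain highest. On the log2 scale wild-type forebrain minus midbrain gave -3.43 (SE 0.241, adjusted p 2.84e-07), and in knockout libraries -1.52 (SE 0.210, adjusted p 0.000133). Foxb1 spans 69757710 to 69760940 on chromosome 9.

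Barhl2 and Tcf7l2 were higher in midbrain and detected in every library. Barhl2 measured 13.4 and 15.4 CPM in wild-type forebrain, 22.9 and 21.2 CPM in knockout forebrain, 54.1 and 42.5 CPM in wild-type midbrain and 51.6 and 54.8 CPM in knockout midbrain. Tcf7l2 measured 35.6 and 42.5 CPM in wild-type forebrain, 43.3 and 63.1 CPM in knockout forebrain, 276 and 240 CPM in wild-type midbrain and 292 and 317 CPM in knockout midbrain. For both genes every midbrain library exceeded every forebrain library, and within forebrain the knockout lay above the wild type. The log2 difference between wild-type forebrain and midbrain was -1.76 (SE 0.132, adjusted p 5.13e-07) for Barhl2 and -2.73 (SE 0.143, adjusted p 2.01e-08) for Tcf7l2. In knockout libraries it was -1.27 (SE 0.126) and -2.52 (SE 0.138), with adjusted p of 7.46e-06 and 3.21e-08.

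The Barhl2 upstream region is shown as the most CpG-rich window of the set, at chr5:106458167-106458416 on the minus strand of GRCm38.p6. It has 74.8% G and C, 36 CpG dinucleotides and 3 matches to GGGCGG, in capitals.
Barhl2: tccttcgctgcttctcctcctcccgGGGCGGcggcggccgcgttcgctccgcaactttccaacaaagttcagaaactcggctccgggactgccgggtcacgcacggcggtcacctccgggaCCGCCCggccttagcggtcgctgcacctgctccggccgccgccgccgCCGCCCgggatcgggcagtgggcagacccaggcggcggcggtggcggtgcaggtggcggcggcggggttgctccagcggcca
Tcf7l2 has 2 annotated start sites on chromosome 19: the first window has 72.8% G and C with 6 GC-box matches, 2 of them overlapping, and the second 40.8% with none. The counts are per gene and do not separate the start sites.

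**Figure D3:**
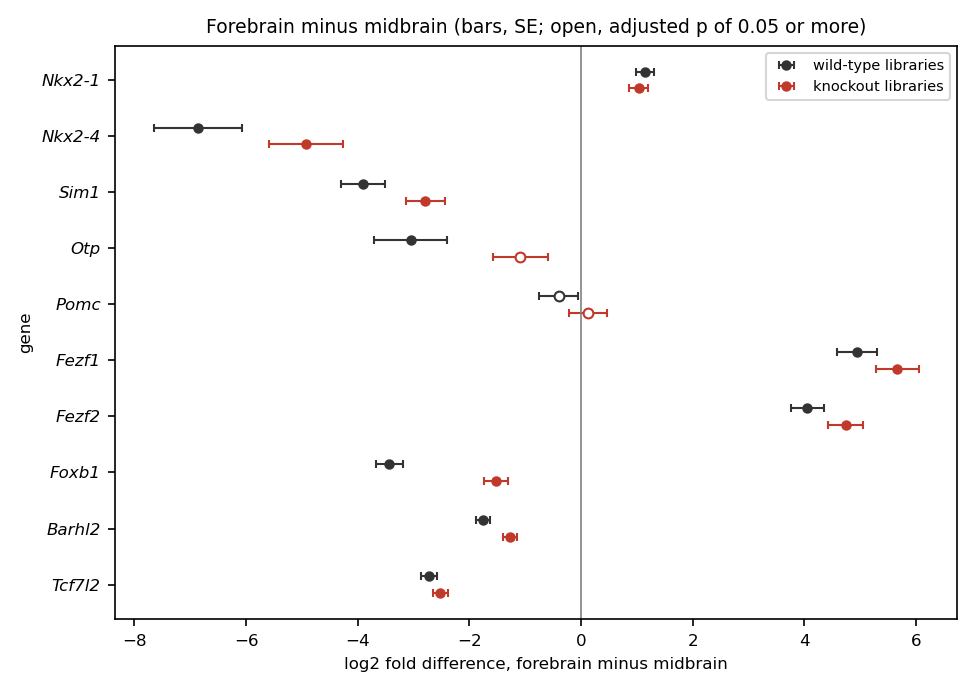
Log2 fold difference of forebrain minus midbrain for each gene, in wild-type libraries (dark) and knockout libraries (red); points are edgeR estimates, bars their SE, open points not past the threshold. Fezf1, Fezf2 and Nkx2-1 lie to the right of 0 in both sets, and 6 genes lie to the left, with Pomc near 0. The Nkx2-4 estimate in the wild type rests on 1 forebrain count and depends on the prior count of the fit.

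Other genes of the same regions also fell on both sides. Of 16 further hypothalamic genes 11 could be tested, 3 higher and 5 lower in wild-type forebrain than in midbrain. At one extreme was Vax1, a homeobox gene of the rostral ventral forebrain, 440-fold higher in forebrain over summed counts (78.5 to 17399, from 429 against 1 counts). Vax1 was at most 0.172 CPM in any midbrain library and passed the filter on low counts through its forebrain counts alone. It could be called only as higher in forebrain. Nkx2-2, of the ventral neural tube, and Sim2 had log2 differences of -6.60 and -5.01. The list's median log2 difference was -0.50, against 0.0012 over all tested genes.

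Of 16 neuropeptide and neuroendocrine genes 9 could be tested, 4 of them lower in forebrain and 0 higher. Trh and Cartpt (at most 0.284 and 0.0678 CPM in forebrain) and Sst passed the filter on low counts through their midbrain counts alone. Those genes could be called only as higher in midbrain. In forebrain Sst reached 1.93 CPM in knockout replicate 1 and at most 0.678 CPM in the other libraries. Cartpt was 201-fold higher in midbrain over summed counts (35.7 to 7980, from 206 against 1 counts), and Trh, Sst and Tac1 had log2 differences of -5.04, -4.68 and -1.24. The Tac1 call was lost without forebrain wild-type replicate 2 (adjusted p 0.126) or midbrain wild-type replicate 1 (0.280). Avp and Oxt, products of the neurons that Sim1 and Otp help to specify, had no count in any library.

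Of 12 thalamic and epithalamic genes all were tested, and 8 were lower in forebrain and 0 higher. The largest differences were -4.88 for Pou4f1, -4.71 for Dbx1, -2.66 for Gbx2 and -2.56 for Irx3, genes that the midbrain also expresses in part, and the list's median was -1.52. Of 10 prethalamic genes 7 were higher in forebrain and 2 lower, led by Gsx2 (5.35), Dlx2 (3.66), Dlx1 (2.96) and Dlx5 (2.91), which the ganglionic eminences of the telencephalon express as well. Among 8 paralogs of the members, Barhl1 had a log2 difference of -7.16, beside the -1.76 of Barhl2, and Nkx2-9 was 56.9-fold higher in midbrain (19.2 to 279, from 175 against 3 counts). Within the TCF/LEF family the members differed: Tcf7l1 was higher in forebrain (log2 difference 0.79), while Tcf7 and Lef1 (log2 differences -0.011 and -0.24, adjusted p 0.965 and 0.0755) were not called, beside the -2.73 of Tcf7l2. These differences between paralogs were not tested against each other.

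The hs267-853 comparison asked which genes change in forebrain with that deletion. The name joins 2 element numbers, and whether 1 or 2 enhancers are deleted is not given in the sources used here. Of these regulators 0 of 10 were called by edgeR, against 0.0130% of all tested genes (2 of 15383). At an unadjusted p under 0.05 there were 6 of 10 (Sim1, Otp, Fezf1, Foxb1, Barhl2 and Tcf7l2), against 4.78% of all genes. The members and the lists below were chosen with earlier results of these data known. Shares above those of all genes are therefore not an unbiased measure of enrichment. Both knockout libraries lay above both wild-type libraries for 7 of 10 (Otp, Pomc, Fezf1, Fezf2, Foxb1, Barhl2 and Tcf7l2), against 31.1% of all genes with separated groups in either direction. Leaving aside Nkx2-4, which passed the filter through its midbrain counts alone, 8 of 9 point estimates were above 0, with a median log2 difference of 0.62, against 0.0078 over all genes.

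Foxb1 had the smallest p among the members, the sixth smallest of all genes. Its mean was 1.75 ± 0.264 CPM without and 4.91 ± 1.57 CPM with the deletion (SD, n = 2), which gave a log2 difference of 1.48 (SE 0.268, adjusted p 0.237). It passed in DESeq2 (adjusted p 0.0105) and without a filter on low counts (1.04e-05), and its adjusted p over all alternatives ran up to 1. The fit without a filter called 161 genes in this comparison against 2 in the chosen fit, so its calls do not compare with those of the chosen fit. The Foxb1 difference was 1.79 without knockout replicate 1 and 1.13 without knockout replicate 2. Barhl2 went from 14.4 ± 1.44 to 22.03 ± 1.17 CPM, a log2 difference of 0.62 (SE 0.137, adjusted p 0.351), and its knockout libraries differed from each other by only 1.08-fold. It passed without a filter (adjusted p 0.000751) and without knockout replicate 2 (0.0473), with a range up to 1.

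The other differences rested more on a single library. Where a knockout library is left out, the remaining one is assumed to vary like the libraries of the other groups, here and for Foxb1 and Barhl2 above. Otp had a log2 difference of 2.56 (SE 0.666, adjusted p 0.671), which was 1.05 without knockout replicate 1 and 3.25 without knockout replicate 2, the latter with an adjusted p of 0.000627. Sim1 had 1.10 (SE 0.477, adjusted p 0.984), which turned to -0.18 without knockout replicate 1 and was 1.72 without knockout replicate 2 (adjusted p 0.00494). Tcf7l2 leaned on the other library: its 0.44 (SE 0.147, adjusted p 0.963) became 0.70 without knockout replicate 1, with an adjusted p of 0.0233, and 0.15 without knockout replicate 2.

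Fezf1 had a log2 difference of 0.52 (SE 0.220, adjusted p 0.984), which was 0.27 without knockout replicate 1. The difference was 0.66 for Pomc (SE 0.342), 0.24 for Fezf2 (SE 0.210) and -0.20 for Nkx2-1 (SE 0.155), each with an adjusted p of 0.984. Without a filter on low counts Fezf1 was called (adjusted p 0.0312), as were Sim1, Otp and Tcf7l2. Nkx2-4, with 5 counts over the 4 forebrain libraries, was tested because of its midbrain counts. Its fitted value in this comparison rests on those 5 counts and depends on the prior count of the fit.

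**Figure D4:**
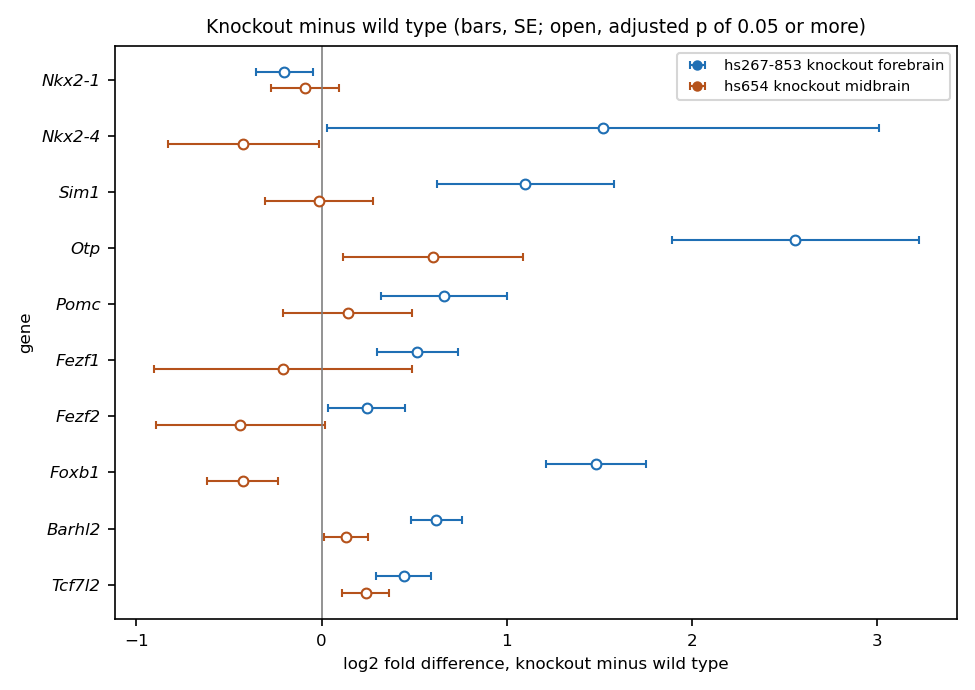
Log2 fold difference of knockout minus wild type for each gene in forebrain (blue) and midbrain (brown); points are edgeR estimates, bars their SE, and all points are open because none passed the threshold. Otp, Foxb1 and Barhl2 lie farthest above 0 relative to their SE in forebrain, and Foxb1 lies below 0 in midbrain. The Nkx2-4 estimate in forebrain rests on 5 counts.

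The knockout forebrain libraries differed from each other in which members were high. Again leaving aside Nkx2-4, replicate 1 was the highest of the 4 forebrain libraries for 4 of 9 members (Sim1, Otp, Fezf1 and Barhl2), against 31.0% of all tested genes, and replicate 2 for 4 of 9 (Pomc, Fezf2, Foxb1 and Tcf7l2), against 23.7%. Replicate 1 over replicate 2 was 4.64-fold for Otp and 3.75-fold for Sim1, and 0.631-fold for Foxb1 and 0.687-fold for Tcf7l2. Barhl2, at 1.08-fold, was nearly equal in both. Replicate 1 was also the highest forebrain library for 10 of 10 prethalamic genes, 8 of 11 other hypothalamic genes and 6 of 9 neuropeptide and neuroendocrine genes. The same held for 4 of 12 thalamic and epithalamic genes, 4 of 8 paralogs and 5 of 10 telencephalic genes. Gsx2 and Dlx2 stand in both the prethalamic and the telencephalic list. Of the 10 prethalamic genes 0 had an unadjusted p under 0.05 between knockout and wild-type forebrain. In the same library the summed level of 8 mesenchymal genes was 1241 CPM, against 1744 to 2192 CPM in the 3 other forebrain libraries, and that of 10 midbrain genes was 19.1 CPM, against 36.2 to 41.3 CPM. The part of tissue composition in the knockout values was not tested.

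Among the hypothalamic, neuropeptide, thalamic, prethalamic and paralog lists 0 genes were called in knockout forebrain by edgeR, and 7 of 47 tested (14.9%, against 4.78% of all genes) had an unadjusted p under 0.05, all with higher point estimates in the knockout: Nkx2-2, Nkx2-9, Sst, Six3, Olig3, Dbx1 and Neurog2. They are named after their values were seen. Nkx2-2 measured 0.136 and 0.155 CPM in the wild-type libraries, against 4.03 and 0.982 CPM in the knockout ones (log2 difference 4.07, SE 0.767, adjusted p 0.247), and without knockout replicate 1 the difference was 2.69 (adjusted p 0.227). Olig3, a bHLH gene of the thalamic progenitors, measured 4.07 and 7.74 CPM in the wild-type libraries, against 12.8 and 13.1 CPM in the knockout ones (1.15, SE 0.233, adjusted p 0.272). Both passed in DESeq2, with adjusted p of 0.000812 and 0.0075. Sst had a log2 difference of 1.38 (SE 0.619), which was -0.032 without knockout replicate 1.

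**Figure D5:**
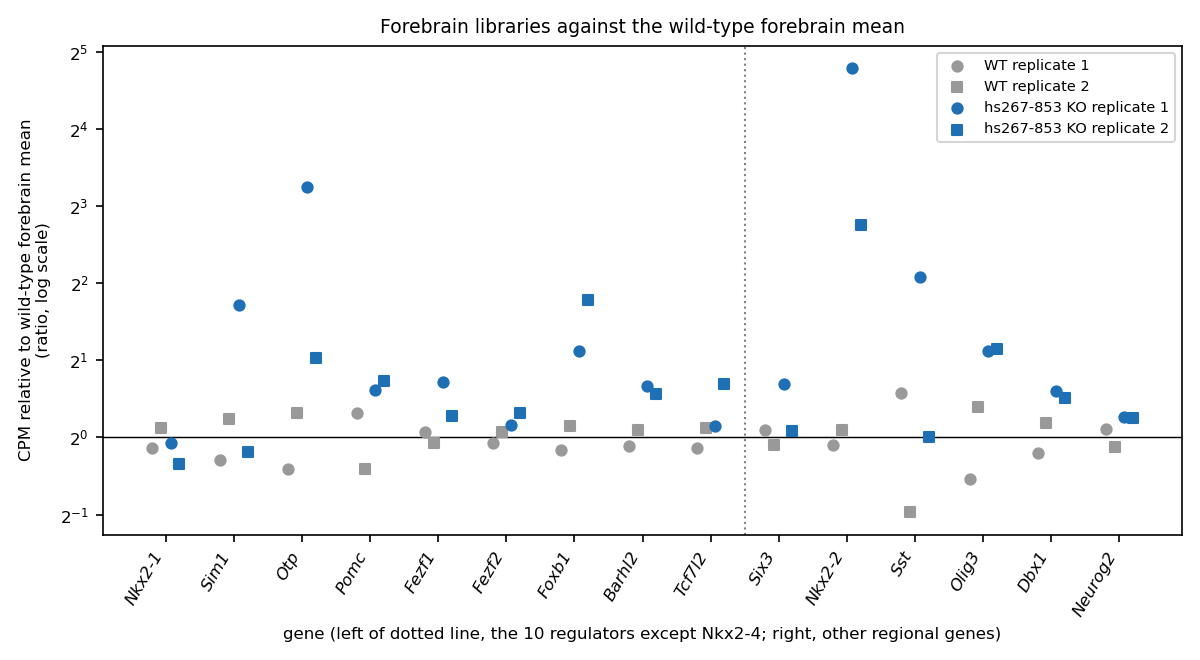
Level in each forebrain library divided by the wild-type forebrain mean (ratio, log scale) for 9 of the regulators and, right of the dotted line, 6 other regional genes with an unadjusted p under 0.05 and no zero count. Otp and Sim1 are high in knockout replicate 1 alone or mainly, at 9.49 and 3.28 times the wild-type mean, Foxb1 and Tcf7l2 are higher in replicate 2, and Barhl2, Olig3 and Dbx1 are nearly equal in both.

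The hs654 comparison asked the same in midbrain. Again 0 of 10 members were called by edgeR, against 0.00% of all tested genes, and 1 of 10 had an unadjusted p under 0.05, against 3.96%. The groups were separated for 3 of 10 (Nkx2-4 and Foxb1 lower, Tcf7l2 higher in the knockout), against 36.7% of all genes. The median log2 difference was -0.051 over the members and -0.00092 over all genes. In the hypothalamic, neuropeptide, thalamic, prethalamic and paralog lists 0 genes were called by edgeR in knockout midbrain, and 0 had an unadjusted p under 0.05. The summed level of 8 erythroid genes was 5391 and 2899 CPM in the midbrain libraries of the wild type, against 3037 and 2697 CPM in those of the knockout, and its part in the values was not tested.

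Foxb1 was the member with an unadjusted p under 0.05. Its mean was 18.9 ± 0.651 CPM without and 14.04 ± 0.522 CPM with the deletion (SD, n = 2), which gave a log2 difference of -0.43 (SE 0.190, adjusted p 0.992). Leaving out 1 library at a time kept it between -0.46 and -0.38. Tcf7l2 had a log2 difference of 0.24 (SE 0.126), from 258 ± 25.4 to 304 ± 17.3 CPM, also with an adjusted p of 0.992. Otp had 0.60 (SE 0.486), and the remaining 7 members lay between -0.44 and 0.14. The Fezf values had no stable direction: without wild-type replicate 2, the midbrain library with the highest telencephalic sum, they turned from -0.21 to 1.57 for Fezf1 and from -0.44 to 0.64 for Fezf2.

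The knockout effects were compared directly, as the midbrain log2 difference minus the forebrain one. Tissue and deleted element change together in this contrast, and the 2 comparisons share no library. Here 0 of 10 members were called by edgeR, against 0.00650% of all tested genes (1 of 15383), with 3 of 10 at an unadjusted p under 0.05 (Otp, Foxb1 and Barhl2), against 4.02% of all genes. Foxb1, with higher values in knockout forebrain and lower values in knockout midbrain, had a difference of -1.91 (SE 0.329, p 6.71e-05 before and 0.344 after adjustment). It had the third smallest p of all genes. The adjusted p was 3.7e-06 without a filter, 0.0235 in DESeq2, 0.00753 without forebrain knockout replicate 1 and 0.0404 without forebrain knockout replicate 2, and it ran up to 1 over the alternatives. Without a filter on low counts 111 genes were called in this contrast against 1 in the chosen fit, so calls there do not compare with those of the chosen fit. Otp had -1.96 (SE 0.843) and Barhl2 -0.49 (SE 0.182), both with an adjusted p of 0.996. The Otp value was -0.44 without forebrain knockout replicate 1, and Otp was called without a filter (0.000261) and without forebrain knockout replicate 2 (0.0319).

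Genes with the most similar profile over the 8 libraries were looked up for each member by Pearson's r of log2 CPM among 14319 other genes with a mean of at least 1 CPM. The 8 points share their libraries and fall into 2 tissues, and r is given as a description. Fezf2 was closest to Eomes and Tfap2c (r = 0.998 for both), and Fezf1 to Emx1 and Rasgrp1 (0.996 for both). Tcf7l2 was closest to Shox2 (0.998) and Wdfy3 (0.997), and Barhl2 to Rimklb (0.994) and Grina (0.993). For Sim1 the nearest genes were Nes (0.997) and Apba2 (0.993), for Nkx2-4 Mir124a-2 (0.996) and Vwa5b2 (0.995), for Nkx2-1 Dnph1 (0.993) and Rpa1 (0.992), and for Foxb1 Tecpr2 (0.992) and Ubxn7 (0.990). Between 131 and 764 genes reached an r above 0.95 with each of these 8 members. Otp and Pomc had few such genes, 11 and 1, with Hdac6 (0.962) and Insig1 (0.955) closest to Otp, and Stk19 (0.9504) and Hrk (0.938) closest to Pomc.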

How the data were processed

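The 8 RNA-seq libraries were used. Per the labels, tissue of several E11.5 embryos was combined for each of 2 replicates per group, and poly(A) RNA was sequenced. The authors deposited raw counts per gene symbol, one table per library. STAR, HTSeq and DESeq2 and the build mm10 are named in the submitters' processing notes, without versions, and annotation and strand setting are not given in the sources used here. The 5 closing rows that name no gene were left out of library sizes. Of the counts not set aside for other reasons (genes, no feature, ambiguous), 40.7% to 44.1% fell in genes, which limits depth per gene.

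Counts were analysed with edgeR 4.0.16 in R 4.3.3: filterByExpr, TMM scaling (factors 0.978 to 1.01), 1 mean per group, and a quasi-likelihood fit over all 8 libraries, with two-sided tests and Benjamini-Hochberg adjustment over 15383 genes. The SE is the size of the log2 difference divided by the square root of F. CPM uses TMM-scaled totals. Replicates are pools, and p-values measure the spread between pools. No pair of replicates was one library deposited again (chi-square over degrees of freedom 3.75 to 7.74). The fit was tried on simulated counts with 1 mean per gene over all groups, except for 200 genes changed in knockout forebrain. That simulation had no tissue difference and no outlying library. It cannot show how the fit behaves with a library such as replicate 1 of the knockout forebrain. Counts and sums over lists include a few genes that are not reported here by name. The members and lists were chosen with earlier results of these data known.

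All 10 members were named. From each list the up to 4 genes with the largest called tissue difference were named, and the 2 genes closest in profile to each member. Other genes were named after their values were seen. Intervals on ratios of summed counts are exact binomial intervals (95%) and cover counting error only. Promoter windows and gene positions came from RefSeq (GRCm38.p6, the assembly that mm10 names). The alternatives tried changed the scaling (RLE, upper quartile), the filter (none, or a mean count of 50 or more), the tool (DESeq2 1.42.0 or voom in limma 3.58.1) or the model (a replicate block, only the 4 libraries compared), or left out each library in turn.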

Additional observations from a re-analysis of the deposited data

How the results depend on the processing

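For wild-type forebrain against midbrain 9 members were called, and for the knockout tissues 8, and these counts stayed within 1.5 times under every alternative run. Of the single-gene values recomputed, 1702 kept direction and call, 22 changed sign, 30 gained and 20 lost a call, and the 80 group levels moved by less than 1 SD under RLE or total scaling. The stricter filter removed Nkx2-4 and Pomc, and the fit to only 4 libraries was not run for the difference between knockouts. The cause of the changes below was not tested.

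Without a filter on low counts, knockout forebrain had 6 members and 161 genes called (0 and 2 in the chosen fit), knockout midbrain 22 genes (0) and the difference 2 members and 111 genes (0 and 1). DESeq2 called 1 member and 13 genes in knockout forebrain, and 1 member and 4 genes in the difference. Knockout forebrain had 1 gene in limma-voom and 1 with only the 4 libraries, where knockout midbrain also had 1. With each library left out in turn there were 0 to 3 members and 1 to 209 genes in knockout forebrain (9 genes without knockout replicate 1, 209 without replicate 2), 0 to 8 genes in knockout midbrain (8 without wild-type replicate 2, 2 without knockout replicate 1), and 0 to 3 members and 0 to 64 genes in the difference (64 without forebrain knockout replicate 2). The tissue counts ran from 2816 to 5285 genes in wild type (lowest without midbrain replicate 1, 3019 without forebrain replicate 2) and from 2810 to 4358 in the knockouts (lowest without midbrain replicate 2, 2845 without replicate 1).

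Signs changed in limma-voom for Fezf1 in knockout midbrain (0.32), and otherwise when 1 library was left out. The log2 ranges were -0.067 to 0.30 for Pomc between knockout tissues. In knockout forebrain they were -2.27 to 3.85 for Nkx2-4, -0.18 to 1.72 for Sim1 and -0.032 to 2.36 for Sst. In knockout midbrain they were -0.29 to 0.12 for Nkx2-1, -0.14 to 0.12 for Sim1, -0.031 to 0.32 for Pomc, -1.11 to 1.57 for Fezf1, -1.14 to 0.64 for Fezf2 and -0.026 to 0.32 for Barhl2. For the difference they were -0.088 to 0.33 for Nkx2-1, -4.27 to 1.85 for Nkx2-4, -1.74 to 0.16 for Sim1, -1.63 to 1.05 for Fezf1, -1.39 to 0.40 for Fezf2 and -0.46 to 0.085 for Tcf7l2.

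Same-numbered replicates did not deviate together (r from -0.0255 to 0.0670 over 6 pairs of groups), and the labels do not say that a number marks a shared litter or day. With a replicate block 9 and 8 members were called between tissues and 0 in each knockout comparison, with 4501, 4515, 3, 0 and 1 genes over the 5 comparisons.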
